A study of Rattus norvegicus with 6 samples.

Results

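Podocytes are the epithelial cells that wrap the glomerular capillaries. Their foot processes interdigitate, and the gap between neighbouring processes is bridged by the slit diaphragm, a specialised junction built around nephrin that retains plasma protein in the blood. The junction is tied through adaptor and scaffold proteins to a contractile actin bundle, and the genes for these parts are switched on by a small set of transcription factors, among them Wt1.

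The genes described here are 8 of the 15645 genes named on the array: the slit diaphragm gene Nphs1 with its adaptors Cd2ap and Magi2, the surface proteins Podxl and Ptpro, the actin-associated proteins Synpo and Actn4, and the transcription factor Wt1. They were chosen by name, as every probe whose transcript accession maps to one of them in RefSeq. That gave 15 of 61537 probes: 4 for Wt1, 3 for Ptpro, 2 each for Nphs1 and Actn4, and 1 each for Podxl, Synpo, Magi2 and Cd2ap. All 8 genes passed the filter on dim probes, and all 15 probes lay well above background on all 6 arrays.

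The animals were male Crl:CD(SD) Sprague-Dawley rats, 5 weeks old at purchase, and the RNA was from kidney cortex. The study compared 3 rats given TBBC at 300 mg/kg/day with 3 rats given its vehicle, corn oil, each for 4 weeks. TBBC is the thiobis(6-tert-butyl-m-cresol) in which sulfur joins the 4 and 4' carbons of the cresol rings, an antioxidant used in rubber and plastics. Each animal had its own 1-colour (Cy3) oligonucleotide array. Cortex is a mixture in which podocytes are a minority and proximal tubule is the main epithelium, so fewer podocytes and less RNA per podocyte cannot be told apart in these values. On each array 67.1% to 70.9% of probes lay well above background. Pearson correlations across transcripts were 0.983 to 0.985 within the TBBC group, 0.975 to 0.985 between groups and 0.992 within the vehicle group. TBBC 1 shared slide 1 with the 3 vehicle arrays, while TBBC 2 and TBBC 3 were on slide 2, which was scanned separately.

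None of the 8 genes changed past the test. Of 32956 transcripts tested with limma, 0.531% had an adjusted p under 0.05, and 0 of the 8 genes did. At an unadjusted p under 0.05 there were 2 of the 8, where 20% of all transcripts reached that level: Actn4 with the lower mean in TBBC, against 10.4% of transcripts, and Cd2ap with the higher, against 9.55%. Of the 8 genes, 7 had a lower mean in TBBC, against 53.5% of all transcripts, and 1, Cd2ap, a higher one. The median log2 fold change was -0.28, against -0.02 over all transcripts tested. Fold changes are TBBC over vehicle, and levels are log2 of the signal relative to the array's own 75th percentile, so that 0 is that percentile. They place a rat above or below another rat for the same probe and do not rank genes against each other.

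**Figure D1:**
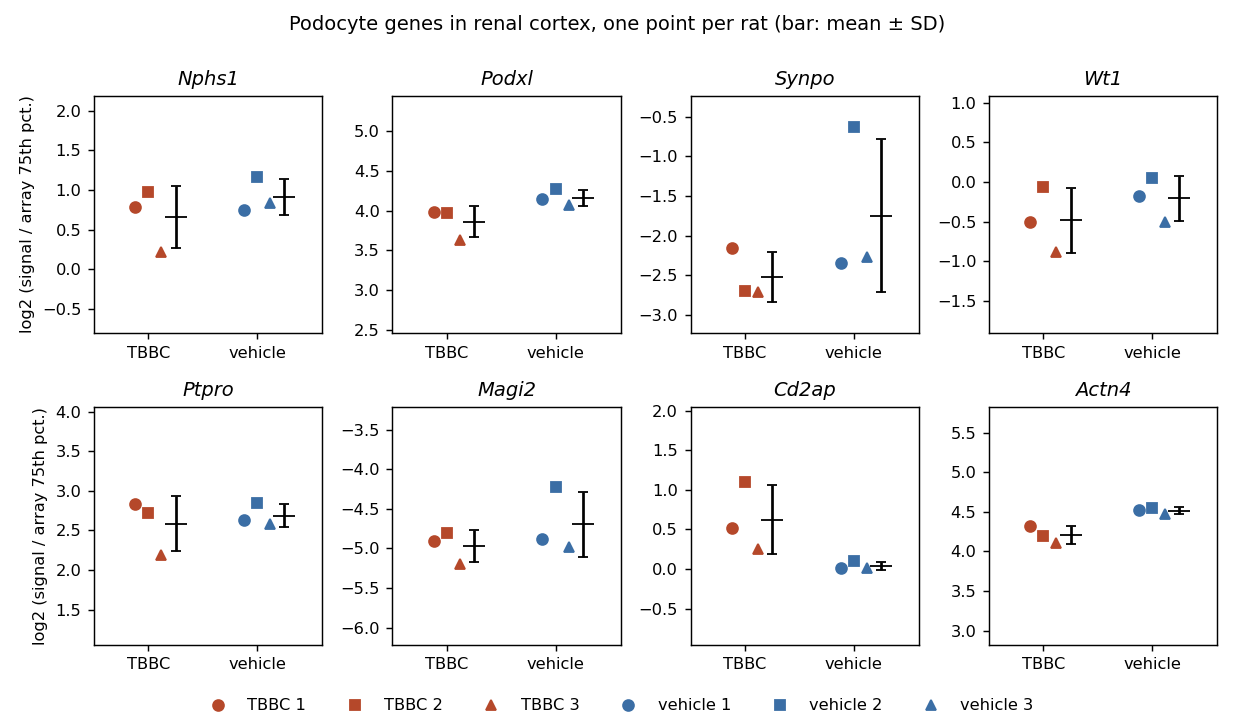
Level of each of the 8 podocyte genes (y axis, log2 signal over the array's 75th percentile, all panels spanning the same number of log2 units) in the 3 TBBC rats, left, and the 3 vehicle rats, right, with 1 point per rat and the mean ± SD beside them. TBBC 3, the triangle on the left, is lowest of all 6 arrays in 7 of 8 genes, and vehicle 2, the square on the right, is highest in the same 7.

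Nephrin, the product of Nphs1, is an immunoglobulin superfamily protein whose extracellular part spans the slit. Nphs1 was measured at 0.78, 0.98 and 0.22 in TBBC rats 1 to 3 and at 0.74, 1.16 and 0.83 in vehicle rats 1 to 3. TBBC 1 and TBBC 2 lay within the vehicle range and TBBC 3 lay below it. The log2 fold change was -0.25 ± 0.23 (SE, n = 3 per group), with a 95% interval of -0.80 to 0.29 and a limma adjusted p of 0.580. The other Nphs1 probe read -0.20, -0.11 and -0.90 in TBBC rats and -0.11, 0.19 and 0.07 in vehicle rats. On that probe all 3 TBBC rats lay below the vehicle rats, TBBC 2 by a small margin, and the difference of -0.46 ± 0.23 did not pass (limma adjusted p = 0.328 with every probe tested for itself).

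Magi2 encodes a multi-domain membrane scaffold that binds nephrin from the inside. Its single probe read -4.91, -4.80 and -5.20 in TBBC rats and -4.88, -4.23 and -4.98 in vehicle rats, close to the dim end of the array, where the lowest signals well above background ran from -6.02 to -5.72. The groups overlapped, vehicle 2 stood highest, and the log2 fold change was -0.27 ± 0.23 (limma adjusted p = 0.551). With normexp background correction the Magi2 difference was 0.01.

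Cd2ap, the adaptor that links nephrin to the actin cytoskeleton, was the exception in direction. It read 0.52, 1.10 and 0.26 in TBBC rats and 0.02, 0.10 and 0.01 in vehicle rats. All 3 TBBC rats lay above all 3 vehicle rats, which were close together, and 13.1% of all transcripts showed the same separation upward. The log2 fold change was 0.58 ± 0.22 with a 95% interval of 0.05 to 1.12, and it did not pass (limma adjusted p = 0.218). Without TBBC 2, the highest of the 6 values, the log2 fold change was 0.34. Cd2ap is also made by tubular epithelium and by leukocytes, and its single probe cannot separate these sources.

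Podocalyxin, encoded by Podxl, is the sialomucin that gives the apical side of foot processes its negative charge, and it is found on endothelium as well. Podxl read 3.98, 3.97 and 3.63 in TBBC rats and 4.15, 4.27 and 4.07 in vehicle rats. Every TBBC rat lay below every vehicle rat, a separation downward that 15.2% of all transcripts also showed. The TBBC mean was 81.1% of the vehicle mean, a log2 fold change of -0.30 ± 0.14 (95% interval -0.63 to 0.03), and it did not pass (limma adjusted p = 0.284). Without TBBC 3 the difference was -0.19.

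Ptpro encodes a receptor tyrosine phosphatase of the apical foot process membrane. The Ptpro probe that stands for the gene read 2.84, 2.73 and 2.19 in TBBC rats and 2.63, 2.85 and 2.58 in vehicle rats, so that TBBC 3 alone lay outside the vehicle range. Its log2 fold change was -0.10 ± 0.20 with a 95% interval of -0.57 to 0.37 (limma adjusted p = 0.814), and the other 2 probes differed by -0.08 and 0.02. The sign was not stable: the difference was 0.10 without TBBC 3 and 0.15 within the shared slide.

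The upstream sequences of Nphs1 and Podxl are shown because these genes, for the junction and for the surface coat, had the lowest reading in TBBC 3 and the highest in vehicle 2 while their start regions are built differently. Each is the 250 bases before the RefSeq start of the gene in build GRCr8, 5′ to 3′ on the gene's strand, at chr1:94848011-94848260 on the plus strand for Nphs1 and at chr4:61149132-61149381 on the minus strand for Podxl. The array's file headers name another build, so these positions belong to RefSeq alone.
Nphs1: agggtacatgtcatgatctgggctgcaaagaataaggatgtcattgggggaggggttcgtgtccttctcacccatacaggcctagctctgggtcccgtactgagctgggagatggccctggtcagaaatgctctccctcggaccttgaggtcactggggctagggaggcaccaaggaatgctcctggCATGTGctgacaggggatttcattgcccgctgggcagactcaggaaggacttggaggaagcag
Podxl: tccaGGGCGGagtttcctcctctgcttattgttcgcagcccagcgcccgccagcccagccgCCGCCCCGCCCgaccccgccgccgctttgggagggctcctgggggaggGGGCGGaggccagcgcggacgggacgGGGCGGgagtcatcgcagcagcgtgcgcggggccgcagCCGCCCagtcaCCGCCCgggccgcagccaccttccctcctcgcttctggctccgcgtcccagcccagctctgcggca
Capitals mark matches on either strand to the GC box GGGCGG or to the E-box CANNTG, the short core bound by basic helix-loop-helix proteins. Podxl holds 7 GC boxes, 2 of which share a base, and Nphs1 holds none. Of 33469 upstream windows of this length, 30.5% hold at least 1 GC box, as do 2 of the 7 windows found for the podocyte genes. Nphs1 holds 1 E-box and Podxl none, and 65.5% of all windows hold one, as do 3 of the 7 windows of the podocyte genes. The letters GCGNGGGNG, a form of the site shared by Wt1 and Egr proteins, occur in neither sequence, in 2 of the 7 windows found for these genes (Magi2 and Cd2ap) and in 9.40% of all windows. GC content was 57.2% for Nphs1 and 76.4% for Podxl, against a median of 51.2% over all windows. The motifs were chosen with the sequences in view, and a match is a run of letters, not an occupied site.

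Synaptopodin, the product of Synpo, stiffens the actin bundle of the foot process. It had the widest spread of the 8 genes: -2.16, -2.69 and -2.71 in TBBC rats and -2.34, -0.63 and -2.27 in vehicle rats. The vehicle mean was raised by vehicle 2 alone, and TBBC 1 lay above both other vehicle rats. The log2 fold change of -0.78 ± 0.48 had a 95% interval of -1.93 to 0.38 (limma adjusted p = 0.417) and was -0.22 without vehicle 2.

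Actn4 encodes alpha-actinin-4, which crosslinks actin filaments in foot processes and in many other cells. It read 4.33, 4.19 and 4.10 in TBBC rats and 4.52, 4.55 and 4.47 in vehicle rats, with no overlap. The TBBC mean was 80.9% of the vehicle mean, a log2 fold change of -0.31 ± 0.11 with a 95% interval of -0.56 to -0.05. The other Actn4 probe read 3.39, 3.03 and 2.90 in TBBC rats and 3.44, 3.50 and 3.54 in vehicle rats, again with no overlap, and differed by -0.39 ± 0.15. Neither probe passed (limma adjusted p = 0.191 for the gene and 0.223 for the other probe). Actn4 had the smallest p of the 8 genes and ranked 4583 among the 32956 transcripts.

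Wt1, the zinc finger transcription factor that podocytes keep from kidney development into adult life, was measured by 4 probes. The probe that stands for the gene read -0.50, -0.07 and -0.88 in TBBC rats and -0.17, 0.05 and -0.50 in vehicle rats, with overlapping groups and a log2 fold change of -0.28 ± 0.24 (limma adjusted p = 0.575). On the other 3 probes the differences were -0.34, -0.72 and -0.29. The largest of these came from a probe reading -3.78, -4.06 and -5.00 in TBBC rats and -3.46, -3.52 and -3.70 in vehicle rats, where the groups did not overlap (limma adjusted p = 0.267 with every probe tested for itself). TBBC 3 was the lowest array on all 4 Wt1 probes.

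The genes also varied from rat to rat within each group. TBBC 3 held the lowest of the 6 values in 7 of the 8 genes, Cd2ap being the exception, and in 14 of the 15 probes. It was lowest in 20.2% of all transcripts tested. Vehicle 2 held the highest value in the same 7 genes and in 10 of the 15 probes, against 14.0% of all transcripts. Both conditions were met together by 7 of the 8 genes and by 3.47% of all transcripts. TBBC 3 and vehicle 2 were singled out from the values of these same genes, so the counts are a description and not a test. Relative to the vehicle mean of each gene, the median over the 8 genes was -0.19, -0.03 and -0.52 in TBBC rats 1 to 3 and -0.04, 0.21 and -0.10 in vehicle rats 1 to 3. These genes share a cell type and the same 6 RNA samples, so they are not independent measurements.

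**Figure D2:**
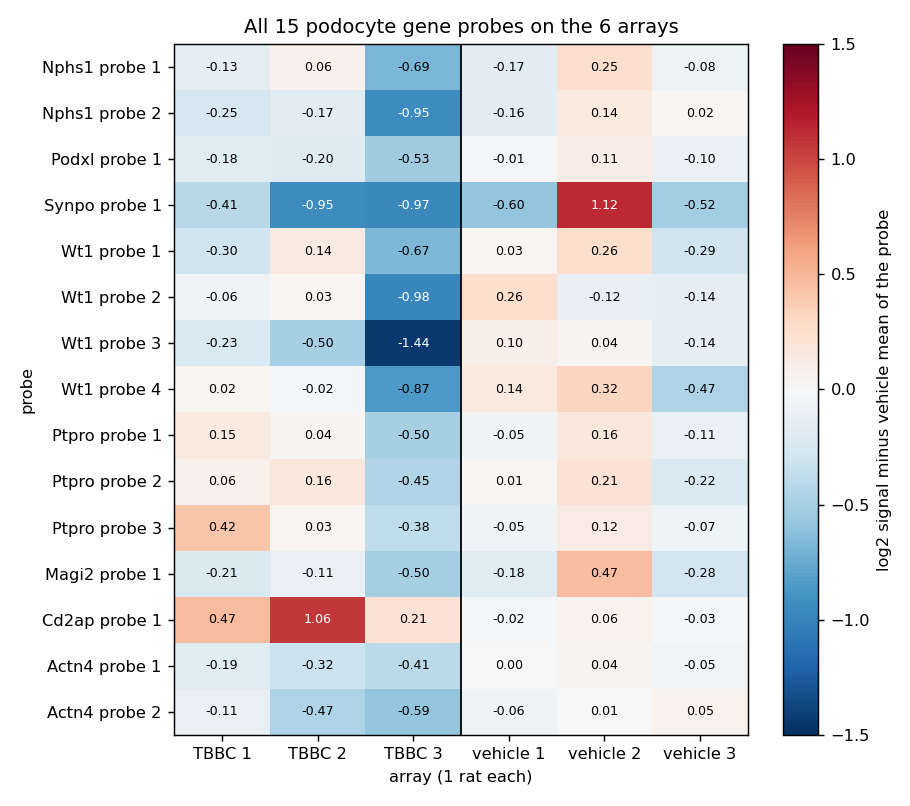
Difference of each probe (rows, 15 probes of the 8 genes) on each array (columns, TBBC left, vehicle right) from that probe's vehicle mean, on the log2 scale, with the value printed in each cell and red for higher, blue for lower. The TBBC 3 column is below 0 in every row but Cd2ap, with a lowest value of -1.44 for a Wt1 probe, while the Ptpro rows of TBBC 1 and TBBC 2 are above 0.

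Leaving out either of these animals moved most of the group differences toward 0. Without TBBC 3 the log2 fold changes were -0.03 for Nphs1, -0.08 for Wt1, -0.16 for Magi2 and -0.68 for Synpo. Without vehicle 2 they were -0.13 for Nphs1, -0.15 for Wt1, -0.02 for Ptpro and -0.04 for Magi2. The median over the 8 genes was -0.12 without TBBC 3 and -0.14 without vehicle 2. It was -0.36 without TBBC 2, where Nphs1 was at -0.41 and Wt1 at -0.48. Without vehicle 3 Wt1 and Magi2 were each at -0.42. For Actn4 the log2 fold change was -0.36 without TBBC 1 and -0.25 without TBBC 3. No gene passed with any 1 array left out. Few of the 33072 to 33434 transcripts tested there passed either. The counts were 10, 6 and 14 without vehicle 1, 2 and 3, and 254, 58 and 274 without TBBC 1, 2 and 3. Within the shared slide, where only TBBC 1 is set against the 3 vehicle rats, the median was -0.19, Cd2ap stood at 0.47 and Actn4 at -0.19, and again no gene passed.

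**Figure D3:**
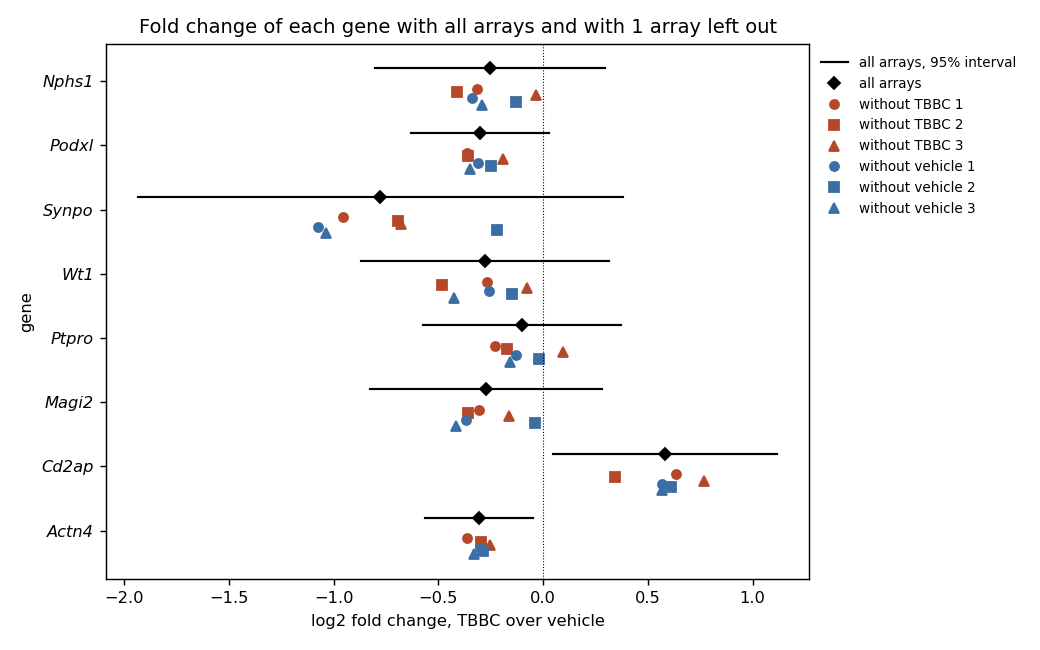
Log2 fold change of each gene, TBBC over vehicle (x axis), with all 6 arrays (black diamond, with its 95% interval from limma) and with each array left out in turn (red for a TBBC array, blue for a vehicle array). Without TBBC 3 Nphs1 is at -0.03, Wt1 at -0.08, Magi2 at -0.16 and Ptpro at 0.10, and without vehicle 2 they are at -0.13, -0.15, -0.04 and -0.02, while Podxl and Actn4 stay below 0 and Cd2ap above 0.

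Markers of other cells varied from rat to rat as well, and not in 1 pattern. Leukocyte markers had array medians, relative to the vehicle mean, of -0.14, -0.39 and 0.79 in TBBC rats 1 to 3 and of -0.27, 0.07 and 0.18 in vehicle rats 1 to 3. TBBC 3 was the highest array for 8 of the 9 leukocyte genes tested, against 19.0% of all transcripts. The summed linear signal of the leukocyte genes was 9.79 to 19.7 in TBBC rats and 8.88 to 14.2 in vehicle rats. The smallest p among them belonged to Aif1, a macrophage marker, at 0.39 ± 0.32 and not past the test (limma adjusted p = 0.547), followed by the T cell marker Cd8a at -0.65 ± 0.59 and the myeloid integrin Itgam at 0.61 ± 0.74. Endothelial markers had medians of -0.17, -0.05 and -0.26 in TBBC rats 1 to 3. Of these markers 6 of 12 were lowest in TBBC 3, against 20.2% of all transcripts, and 5 of 12 were highest in vehicle 2, against 14.0%. Mesangial and mural markers had medians of 0.17, -0.07 and -0.12 in TBBC rats 1 to 3. Of these markers 4 of 10 were lowest in TBBC 3, against the same 20.2%, and 0 of 10 were highest in vehicle 2. Proximal tubule markers had medians of -0.32, -0.14 and -0.07 in TBBC rats 1 to 3. For that list TBBC 1 was the lowest array in 7 of 10 genes, against 16.3% of all transcripts, and vehicle 2 the highest in 1 of 10. TBBC 3 lay nearest the vehicle mean of the 3 TBBC rats there. The part of these differences in the podocyte gene values was not tested.

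The other podocyte genes gave a single call. Lists of slit diaphragm partners, foot process cytoskeleton and adhesion genes, podocyte transcription factors, and podocyte surface, secreted and basement membrane proteins held 59 genes, of which 50 had a named probe and 49 were tested. Of these 1 fell, against 0.276% of all transcripts, 0 rose and 48 did not pass. Of the 49, 32 lay below 0, against 53.5% of all transcripts. Their median log2 fold change was -0.10. TBBC 3 was the lowest array for 17 of the 49, which is 34.7%, against 20.2% of all transcripts. Vehicle 2 was the highest for 17 of the 49, against 14.0% of all transcripts.

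The one that fell was Col4a4, a chain of the collagen IV network that podocytes lay down in the glomerular basement membrane and that some tubular basement membranes also contain. It read 0.97, 0.60 and 0.89 in TBBC rats and 3.01, 2.72 and 2.67 in vehicle rats, and here all 3 TBBC rats were low to a like degree. The log2 fold change was -1.98 ± 0.15 (limma adjusted p = 0.0152), and the other Col4a4 probe gave -2.04 ± 0.18. The log2 fold change stayed between -2.06 and -1.83 over all 22 alternatives, while the adjusted p ran from 0.00484 to 0.116. The call was lost without vehicle 1, 2 and 3, where the log2 fold changes were -1.88, -2.02 and -2.05 and the limma adjusted p-values 0.0881, 0.116 and 0.0714. Within the shared slide they were -1.83 and 0.0599. None of the 8 podocyte genes showed a difference of this size, and the lowest bound of any of their 95% intervals, that of Synpo, was -1.93. The other collagen IV genes of the list, Col4a3 and Col4a5, had no named probe and were not tested.

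Among 17 slit diaphragm partners tested 0 passed, 9 lay below 0 and the median was -0.02. The smallest p-values belonged to the scaffold Iqgap1 (0.35 ± 0.12), the polarity kinase Prkci (0.33 ± 0.13) and the giant cadherin Fat1 (0.28 ± 0.13), all with a higher mean in TBBC and limma adjusted p-values of 0.189, 0.245 and 0.301. Among 16 foot process cytoskeleton and adhesion genes 0 passed, with a median of -0.05. Arhgap24, a Rac1-inactivating protein, was at -0.51 ± 0.15 with no overlap (adjusted p = 0.150), and the filamin gene Flna and the non-muscle myosin gene Myh9 were at 0.23 ± 0.10 and 0.33 ± 0.17. Iqgap1, Flna and Myh9 are made by most cells of the cortex.

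Of 4 transcription factors tested besides Wt1, 0 passed, with a median of -0.19. Foxc2 was at -0.45 ± 0.22 and Foxc1 at -0.32 ± 0.17. The forkhead genes followed the pattern of the slit diaphragm genes in that TBBC 3 was their lowest array. Foxc1 read 0.33, 0.33 and -0.12 in TBBC rats and 0.37, 0.44 and 0.70 in vehicle rats. Among the 12 surface, secreted and basement membrane genes tested, of which Col4a4 was the 1 that fell, the median was -0.18. Efnb1, an ephrin of the slit diaphragm, was at -0.38 ± 0.13 with no overlap (limma adjusted p = 0.185) and Agrn, a basement membrane proteoglycan, at 0.18 ± 0.11.

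**Figure D4:**
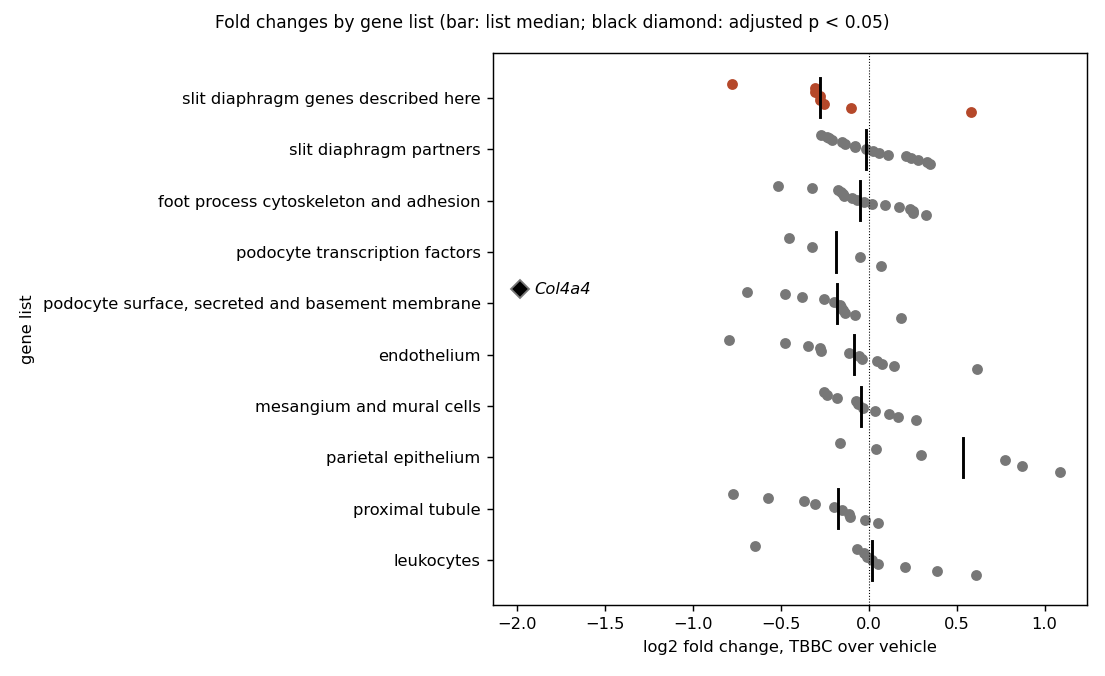
Log2 fold change, TBBC over vehicle (x axis), of every tested gene in each list (rows), with the list median as a bar. The 8 slit diaphragm genes, in red, have a median of -0.28, Col4a4 at -1.98 is the only gene shown that passed the test, and the parietal epithelium list has a median of 0.54.

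Markers of endothelium, in glomerular and other vessels alike, and of mesangial and mural cells gave no call either. Endothelium had 0 of 12 genes past the threshold and a median of -0.08. The smallest p-values there were those of the sialomucin Emcn (-0.48 ± 0.15), the receptor Tie1 (-0.79 ± 0.27) and the adhesion molecule Pecam1 (-0.27 ± 0.10), each with all TBBC rats below all vehicle rats and limma adjusted p-values from 0.172 to 0.215. Of the 12 genes, 4 (33.3%) were separated downward, against 15.2% of all transcripts, and 4 of 12 had a mean above 0. Esam, an adhesion molecule of endothelial junctions and next by p, was separated upward at 0.62 ± 0.24 (limma adjusted p = 0.226). It was named after its values were seen. Mesangium and mural cells had 0 of 10 past the threshold and a median of -0.05, with Gata3 at 0.27 ± 0.20, Myh11 at -0.24 ± 0.20 and Rgs5 at -0.25 ± 0.22.

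Beside the higher Cd2ap values, the list for the epithelium of Bowman's capsule lay above the vehicle mean, although 0 of its 6 genes passed. Its summed linear signal was 26.4 to 43.6 in TBBC rats and 21.2 to 22.0 in vehicle rats, with a median log2 fold change of 0.54 and 5 of 6 genes above 0. Krt8 and Krt18, keratins that parietal and distal tubular cells carry, were at 0.77 ± 0.16 and 0.87 ± 0.37, and the adhesion receptor Cd44, also present on leukocytes, at 1.09 ± 0.44 (limma adjusted p = 0.0893, 0.262 and 0.241). Krt8 read 2.79, 3.25 and 2.80 in TBBC rats and 2.07, 2.30 and 2.15 in vehicle rats, with no overlap. The highest array was TBBC 2 for Krt8 and Krt18, as for Cd2ap, but TBBC 3 for Cd44 and for the claudin gene Cldn1 (0.30 ± 0.21). It was TBBC 1 for the transcription factor gene Pax8 (0.04 ± 0.18) and vehicle 1 for Pax2 (-0.17 ± 0.20). Cldn1, Pax8 and Pax2 were named after their values were seen. Which cells of the cortex gave the higher keratin and Cd44 values was not tested, nor was the part of any such cells in the Cd2ap values. Of the 10 proximal tubule markers 0 passed, with a median of -0.18. A lower mean in TBBC was found for 9 of the 10, against 53.5% of all transcripts. All TBBC rats lay below all vehicle rats for 3 of the 10 (30%), against 15.2% of all transcripts. These were the transcription factor gene Hnf4a (-0.57 ± 0.11), the water channel gene Aqp1 (-0.77 ± 0.17) and the endocytic receptor gene Lrp2 (-0.37 ± 0.10).

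Profiles over the 6 arrays were compared by distance, which depends on the size of the swings as well as on their order. Each gene was centred on its own mean, the 8 profiles were averaged, and every one of the 12298 named genes tested was ranked by its root mean square distance to that average. Magi2 ranked 7, Nphs1 10, Ptpro 29, Podxl 31, Wt1 116 and Actn4 459, while Cd2ap ranked 9537 and Synpo 10496. Synpo shares the low TBBC 3 and high vehicle 2 of the other genes, but its vehicle 2 value lay 1.12 above its vehicle mean, the largest such difference of the 8 genes. The members contribute to the average, so their ranks are a description. The 5 nearest genes from outside were Tspan2, Gja3, Ddn, Dcun1d3 and Tsg101, at distances of 0.05 to 0.09 log2 units. Ddn encodes dendrin, a podocyte protein that binds nephrin's complex, and its log2 fold change was -0.16 ± 0.21 (limma adjusted p = 0.719). The likeness is over 6 arrays, and the average profile was farthest from 0 in TBBC 3 (-0.40) and vehicle 2 (0.41).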

How the data were processed

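The labels place 3 rats in each group. Spot intensity was deposited as scanner output, background-subtracted and detrended within each array. The software was Agilent's Feature Extraction, given as 10.7.1.1 in the headers and as 10.7 in the submitters' processing notes. The deposited value table holds linear ratio values. These were close to the same signal over the array's 75th percentile, with a median ratio between them of 0.998 to 0.999 on each array. The column medians were 0.113, 0.107 and 0.114 for TBBC 1 to 3 and 0.111, 0.112 and 0.113 for vehicle 1 to 3.

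Control spots (1439 of 62976) were left out. Accessions without versions were matched to RefSeq genes of GRCr8, naming 28206 probes. Each array was scaled to its own 75th percentile before log2 was taken. The filter kept a probe if, in 1 group or more, all its unflagged spots were well above background and each group had at least 2 such spots unflagged. No spot was saturated, and no probe of the 8 genes carried an outlier mark. The brightest tested probe stood for a gene. Groups were compared with limma 3.58.1 in R 4.3.3 (lmFit and eBayes, two-sided), with Benjamini-Hochberg adjustment over 32956 transcripts and a threshold of 0.05. Intervals of 95% are unadjusted. Precision is limited by the number of arrays. In simulated data with each transcript's own pooled spread, the procedure recovered 18 of 50 transcripts changed 2-fold, 36 of 50 changed 4-fold and 43 of 50 changed 8-fold, with 9 false calls.

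The genes named are the 8 with all their probes, the 3 with the smallest p in each list and any that passed, and the 5 nearest profiles; 1 of these genes is not reported here. The genes and lists were chosen with earlier results of these data known. The alternatives were other scalings, background correction, the value table, filters, probe summaries, array weights, a trended robust eBayes, slide (statmod 1.5.0 for the random block), the replicate number as a block, and each array left out in turn.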

Additional observations from a re-analysis of the deposited data

How the results depend on the processing

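In all 22 alternatives 0 of the 8 podocyte genes passed, and the median of the 8 ran from -0.36 to -0.12, which is also its range with 1 array left out. Adjusted p-values (limma) ran from 0.108 to 0.585 for Actn4, 0.116 to 0.591 for Cd2ap and 0.172 to 0.712 for Podxl, and none of these genes changed sign. The sign of Ptpro turned to 0.15 with slide as a fixed term, 0.15 within the shared slide and 0.10 without TBBC 3 (-0.23 to 0.10 with 1 array left out), and that of Magi2 to 0.0082 with normexp. The normexp correction ran on the median signal. Both slide settings rest on TBBC 1, since slide 2 holds no vehicle array, and its spread is taken to be that of the other arrays. The count of all transcripts called, 175, was 761 with normexp, 52 with no filter on dim probes, 333 with every probe for itself, 1087 with trend and robust, 48 with a fixed slide term (43 higher, 5 lower), 307 on the shared slide alone (263 higher, 44 lower) and 6 to 274 with 1 array left out. The causes were not tested. The call of Col4a4 was lost in 6 of the 22 alternatives, while its log2 fold change stayed between -2.06 and -1.83. Deviations of same-numbered rats from their group means correlated at -0.09, 0.03 and -0.07. Those of differently numbered rats correlated at -0.13 to 0.21. With 3 rats per group these values cannot settle whether the numbers pair the rats. With the replicate number as a block 0 transcripts passed in limma, with 5366 at an unadjusted p under 0.05, and 0 of the 8 genes.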
